A study of Bos taurus with 56 samples.

Results

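The complement components and regulators of the bovine oviduct epithelium were described as a set of 10 genes given by symbol: C3, C1S, C1R, C2, CFB, CFI, SERPING1, CD46, CD55 and CD59. Of these, 9 were found among the 31903 genes of the count table, and CD55 was found neither under that symbol nor under its synonym DAF, so it was not analysed here. RNA had been sequenced from epithelial cells scraped from the ampulla and the isthmus of both oviducts of 14 Holstein animals, which gave 56 libraries in 12 conditions. The ampulla is the ovarian end of the oviduct, where fertilization takes place, and the isthmus is the uterine end. Ipsilateral means the oviduct on the side of the corpus luteum (CL), the gland that forms on the ovary that has ovulated, and contralateral the other oviduct of the same animal.

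The animals formed 3 metabolic groups: 5 nulliparous heifers, 5 non-lactating cows that had been dried off at their first calving and never milked, and 4 lactating cows that were milked daily. The cows were sampled about 60 days post partum. All animals, heifers included, were non-inseminated and had received the same progesterone device, prostaglandin analogue and buserelin to synchronise estrus, and all tissue was taken on Day 3 after estrus. Heifers also differ from both groups of cows in never having calved, so parity cannot be told apart from metabolic state in any comparison with heifers. Letters were given to the animals of each group, starting from A, in the order of their numbers in the table.

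Complement is a cascade of plasma and tissue proteins that marks particles for removal, calls in leukocytes and can form a pore in a target membrane. The C1 complex, with its serine proteases C1r and C1s, opens the classical pathway, factor B and C2 supply the protease parts of the enzymes that cut C3, and the products of C3 are the point at which all routes meet. Host cells are spared through soluble and membrane regulators, and in the oviduct the C3 made by the epithelium is also known for a derivative with embryotrophic activity.

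The libraries held between 1901454 and 6836850 counts on genes (median 4931502.5), which were 8.66 to 13.7% of the alignments that the table counted. Levels are given as CPM, the gene counts scaled to a common library total after adjustment by the trimmed mean of M-values, and 3 counts corresponded to between 0.445 and 1.55 CPM. CPM values were not divided by transcript length, so they are compared between libraries for one gene and not between genes. A library was set beside the others of its animal number by the correlation of expression over 200 genes that vary between animals, and 4 ipsilateral ampulla libraries went against their numbers or best matched another animal. One non-lactating library carried the number of lactating cow B (r = 0.037 with that number) and best matched non-lactating cow C (r = 0.70), one lactating library carried the number of non-lactating cow C (r = 0.010) and best matched lactating cow B (r = 0.85), and the libraries of heifer B and of cow B of the non-lactating group best matched each other's animals (r = 0.69 and 0.54). The other 52 correlated with their own numbers at 0.476 or more. All libraries stayed in the groups their labels give, and the fitted region and side differences of the complement members that rest on ipsilateral ampulla are also given without these 4. Medians, ranges and group means of that tissue include them.

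Markers of epithelium and of other cells were read in the scraped material. As sums over different genes, their levels do not give amounts of cells. The sum over 5 epithelial markers (EPCAM, CDH1, KRT8, KRT18 and KRT19) was 846 to 1865 CPM, that over 8 markers of ciliated cells 2386 to 6729 CPM, and that over 5 secretory markers including OVGP1 594 to 47825 CPM. None of those markers was at 0 in every library. Macrophage markers summed to 8.99 to 146 CPM, lymphocyte markers to 5.40 to 150 CPM and red blood cell markers to at most 0.720 CPM. Fibroblast markers summed to 31.1 to 618 CPM, endothelial markers to 5.96 to 357 CPM and smooth muscle markers to 7.33 to 93.8 CPM.

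**Figure D1:**
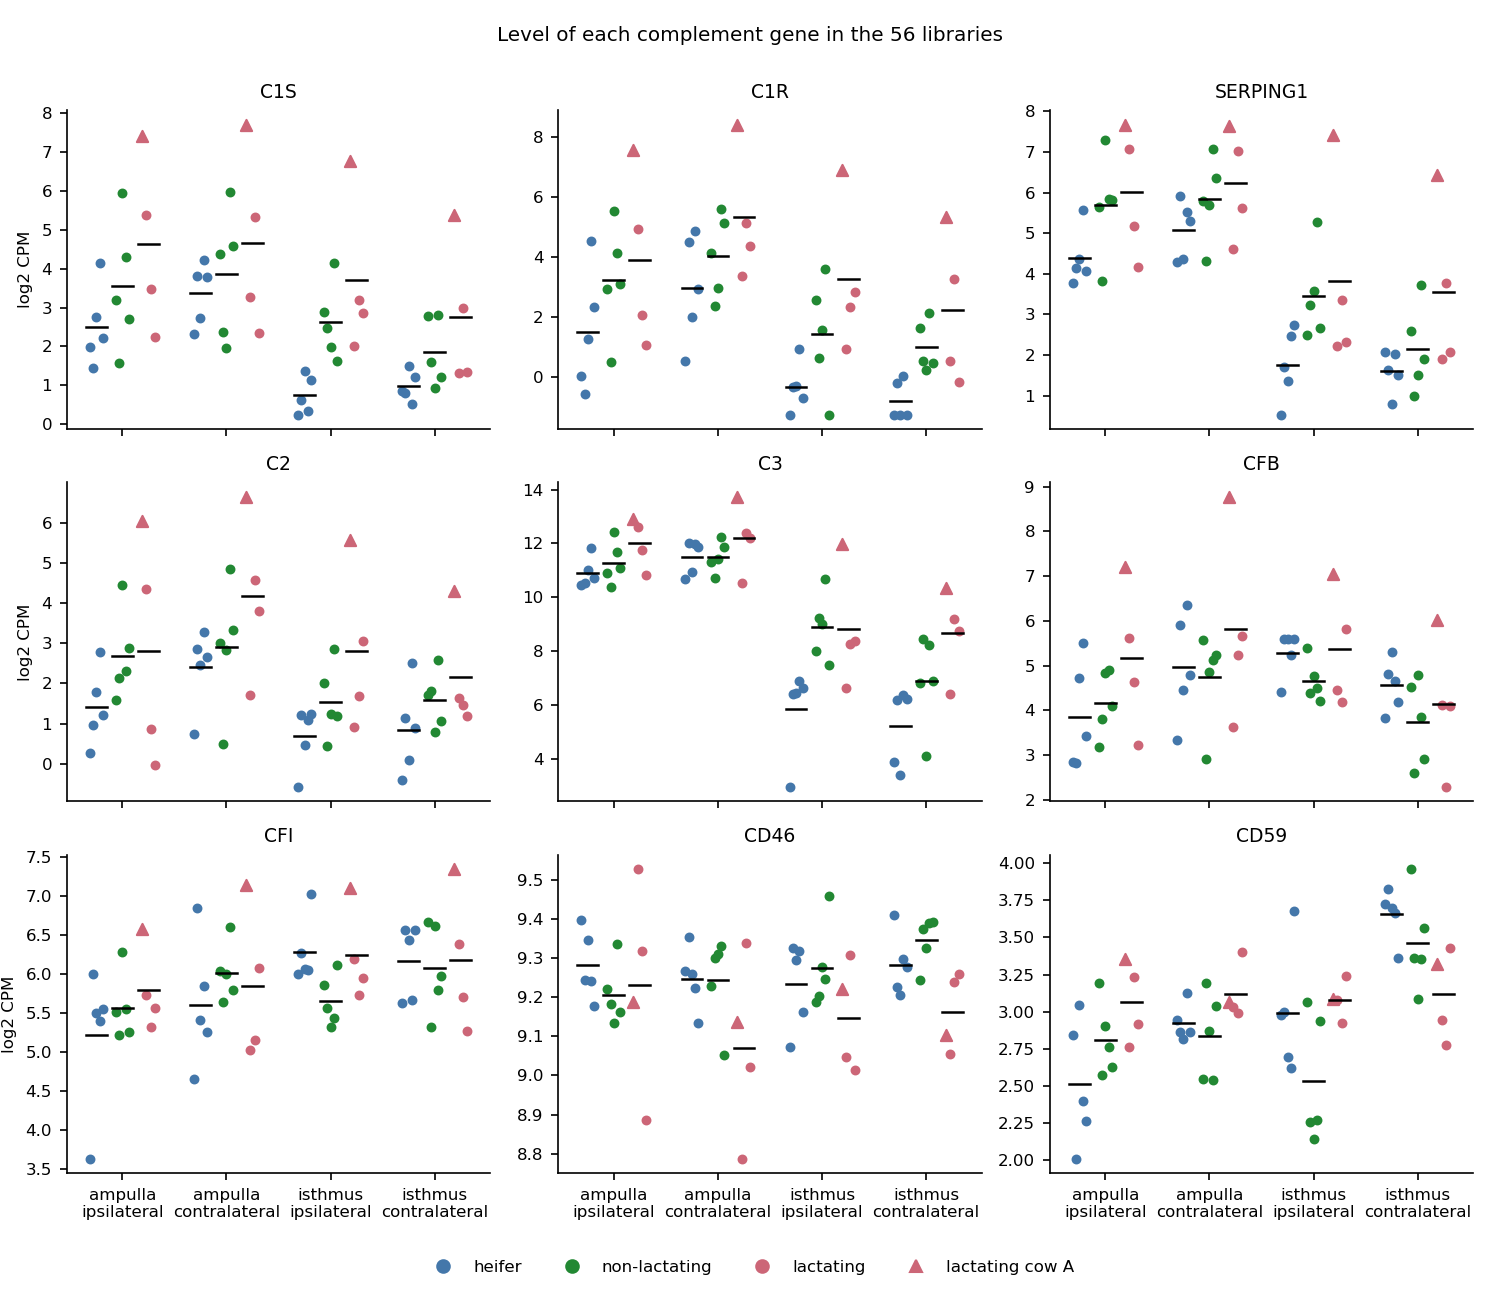
Levels of the 9 complement genes in all 56 libraries. Each panel is 1 gene, the vertical axis is log2 CPM, libraries are grouped on the horizontal axis by region and side and coloured by metabolic group, bars mark means, and triangles mark lactating cow A. C3, SERPING1, C1R and C1S sit lower in the isthmus than in the ampulla, CD46 stays within a narrow band, and the triangles top the columns for C3, C1S, C1R, C2, CFB, CFI and SERPING1.

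In the main fits, which had no block for animal, more complement genes were called between the regions than between sides or groups. The same was true of all genes tested. Region fits held 28 libraries and group fits 9 or 10. In the contralateral oviduct 7 of the 9 genes differed between isthmus and ampulla at an adjusted p under 0.05 (edgeR's quasi-likelihood test, Benjamini-Hochberg adjustment over all genes tested), among a background of 44.6% of the 14680 genes tested. Most lay in 1 direction: C3, SERPING1, C1R, C1S, C2 and CFB were lower in the isthmus (6 genes, with 22.5% of all genes called lower), and CD59 was higher (1 gene, with 22.0% called higher). In the ipsilateral oviduct 4 genes, C3, SERPING1, C1S and C1R, were called and all were lower in the isthmus, against 51.3% of all genes called and 26.5% called lower. The median log2 difference of the 9 genes was -1.96 contralaterally and -0.98 ipsilaterally, beside -0.013 and -0.019 over all genes tested. This comparison of regions was not one of the study's own and serves to show where along the oviduct each transcript was read.

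C3, the component that all routes activate, had the largest fitted difference of the 9 genes between the regions on both sides. In contralateral libraries it ran from 1471 to 13538 CPM in the ampulla (median 3743) and from 10.2 to 1311 CPM in the isthmus (median 97.8). Those ranges did not overlap, as was true of 4.16% of all genes tested. The isthmus was 23.0-fold lower (log2 fold change -4.52, SE 0.49, adjusted p = 9.4e-09, n = 14 and 14) and lay below the ampulla of the same animal in 14 of 14 animals, a pattern that 6.64% of all genes showed.

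Ipsilaterally, C3 ran from 1332 to 7596 CPM in the ampulla (median 2118) and from 7.44 to 3988 CPM in the isthmus (median 218). The ranges overlapped through the isthmus of lactating cow A, which at 3988 CPM stood above the next highest isthmus, 1639 CPM in non-lactating cow D. The isthmus was 7.87-fold lower (log2 fold change -2.98, SE 0.53, adjusted p = 2.7e-05) and was the lower region in 12 of 12 animals whose ampulla and isthmus libraries carried the same group and number, as for 8.62% of all genes. Without the 4 doubted libraries the log2 fold change was -3.33 (SE 0.57, adjusted p = 2.8e-05).

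The 3 lowest C3 values of all were 7.44 CPM in the ipsilateral isthmus of heifer A, 10.2 CPM in the contralateral isthmus of heifer C and 14.5 CPM in the contralateral isthmus of heifer A. The summed secretory markers were at 594, 1059 and 4777 CPM in those libraries, which were among the 4 lowest sums of the 56 libraries. The remaining one of those 4 sums, 1532 CPM in the contralateral isthmus of non-lactating cow C, went with a C3 of 17.1 CPM. Their part in the C3 result was not tested. In these bulk samples fewer cells of a type and less RNA per cell cannot be told apart.

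SERPING1 encodes C1 inhibitor, the serpin that inactivates C1r and C1s. It ran from 19.1 to 198 CPM in the contralateral ampulla (median 49.9) and from 1.30 to 85.8 CPM in the contralateral isthmus (median 3.48). All isthmus libraries but that of lactating cow A, at 85.8 CPM, lay below the lowest ampulla value. The isthmus was 8.36-fold lower (log2 fold change -3.06, SE 0.45, adjusted p = 2.0e-06) and the lower region in 14 of 14 animals.

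In the ipsilateral oviduct SERPING1 ran from 13.3 to 203 CPM in the ampulla (median 41.2) and from 1.03 to 171 CPM in the isthmus (median 5.57). The isthmus was 3.93-fold lower (log2 fold change -1.98, SE 0.51, adjusted p = 0.00188) and lower in 12 of 12 animals. The log2 fold change was -2.26 without the 4 doubted libraries (SE 0.52, adjusted p = 0.000825), and C3 and SERPING1 were then each lower in the isthmus of 10 of 10 animals. The ranges overlapped, with the isthmus of lactating cow A at 171 CPM and that of non-lactating cow D at 38.3 CPM above several ampulla libraries.

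C1R and C1S encode the proteases that SERPING1 inhibits, and the RefSeq annotation places them as neighbouring genes. C1R ran from 1.04 to 338 CPM in the contralateral ampulla (median 18.5) and from 0 to 39.9 CPM in the contralateral isthmus (median 0.850), where it was 11.9-fold lower (log2 fold change -3.57, SE 0.64, adjusted p = 3.3e-05). C1S ran from 3.45 to 208 CPM and from 1.01 to 41.5 CPM in the same tissues (medians 13.5 and 2.09), and was 5.72-fold lower in the isthmus (log2 fold change -2.51, SE 0.53, adjusted p = 0.000239). Both were lower in the isthmus of 14 of 14 animals although the ranges overlapped. C1R had no count in 5 isthmus libraries, in which 3 counts would have been 0.651 to 1.04 CPM, so at this depth a low level there could not be told from none.

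The ipsilateral differences of the 2 proteases were smaller and closer to the threshold. C1S ran from 2.31 to 171 CPM in the ipsilateral ampulla (median 7.51) and from 0.770 to 110 CPM in the isthmus (median 3.57), with a log2 fold change of -1.42 (SE 0.56, adjusted p = 0.0349), and was lower in the isthmus of 11 of 12 animals. C1R ran from 0.257 to 188 CPM and from 0 to 120 CPM (medians 5.90 and 1.48), with a log2 fold change of -1.73 (SE 0.73, adjusted p = 0.0492), and was lower in 9 of 12 animals. The call of C1R was lost in 13 of 16 fits that left out 1 animal or 1 of the misnumbered libraries, and that of C1S in 8 of 16. Without the 4 doubted libraries both were called (C1S -1.85, adjusted p = 0.00608; C1R -2.19, adjusted p = 0.0141).

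C2 and CFB encode related serine proteases, the catalytic parts of the classical and alternative C3 convertases, and are neighbours in the RefSeq annotation. C2 ran from 0.990 to 99.1 CPM in the contralateral ampulla (median 7.26) and from 0.346 to 19.2 CPM in the isthmus (median 2.12), and was lower in the isthmus of 13 of 14 animals (log2 fold change -1.96, SE 0.49, adjusted p = 0.00144). CFB ran from 7.13 to 437 CPM and from 4.49 to 65.1 CPM (medians 36.0 and 17.4), with a log2 fold change of -1.28 (SE 0.45, adjusted p = 0.0198), and was lower in the isthmus of 11 of 14 animals. Ipsilaterally neither was called, with log2 fold changes of -0.98 for C2 (SE 0.55, adjusted p = 0.137) and 0.51 for CFB (SE 0.35, adjusted p = 0.237), and without the 4 doubted libraries -1.23 (adjusted p = 0.0662) and 0.28 (adjusted p = 0.552).

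The 3 remaining regulators did not share the low isthmus values. CD59, the membrane protein that blocks the terminal pore, ran from 5.38 to 10.1 CPM in the contralateral ampulla (median 7.40) and from 6.42 to 15.2 CPM in the contralateral isthmus (median 10.1). It was higher in the isthmus by a log2 fold change of 0.51 (SE 0.13, adjusted p = 0.00278), in 12 of 14 animals. Ipsilaterally its log2 fold change was 0.06 (SE 0.16, adjusted p = 0.779), and -0.01 without the 4 doubted libraries (adjusted p = 0.966).

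CFI encodes factor I, the protease that cuts C3b and C4b with a cofactor, and was not called on either side by the main edgeR fits. Its log2 fold change was 0.47 ipsilaterally (SE 0.20, adjusted p = 0.0504), where it was higher in the isthmus of 11 of 12 animals, and 0.27 contralaterally (SE 0.24, adjusted p = 0.368). Of 7 alternatives 5, DESeq2 and other scaling among them, called it ipsilaterally, with adjusted p from 0.0155 to 0.0925 over the 7. CD46, a membrane cofactor for factor I and in cattle a receptor for bovine viral diarrhoea virus, differed by 0.07 contralaterally (adjusted p = 0.353). Its log2 CPM varied the least of the set over the 56 libraries (SD 0.134), in which it ran from 441 to 737 CPM.

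When animal number was added as a block, the ipsilateral fit called 6 of the 9 genes among 49.9% of all genes. CFI (log2 fold change 0.52, SE 0.17, adjusted p = 0.0155) and CFB (0.69, SE 0.28, adjusted p = 0.0463) were then called higher in the isthmus. In that fit the 2 misnumbered libraries were blocked with the animal whose number they carry. Without the 4 doubted libraries the blocked fit still called CFI (0.60, adjusted p = 0.0236) and not CFB (0.47, adjusted p = 0.236).

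**Figure D2:**
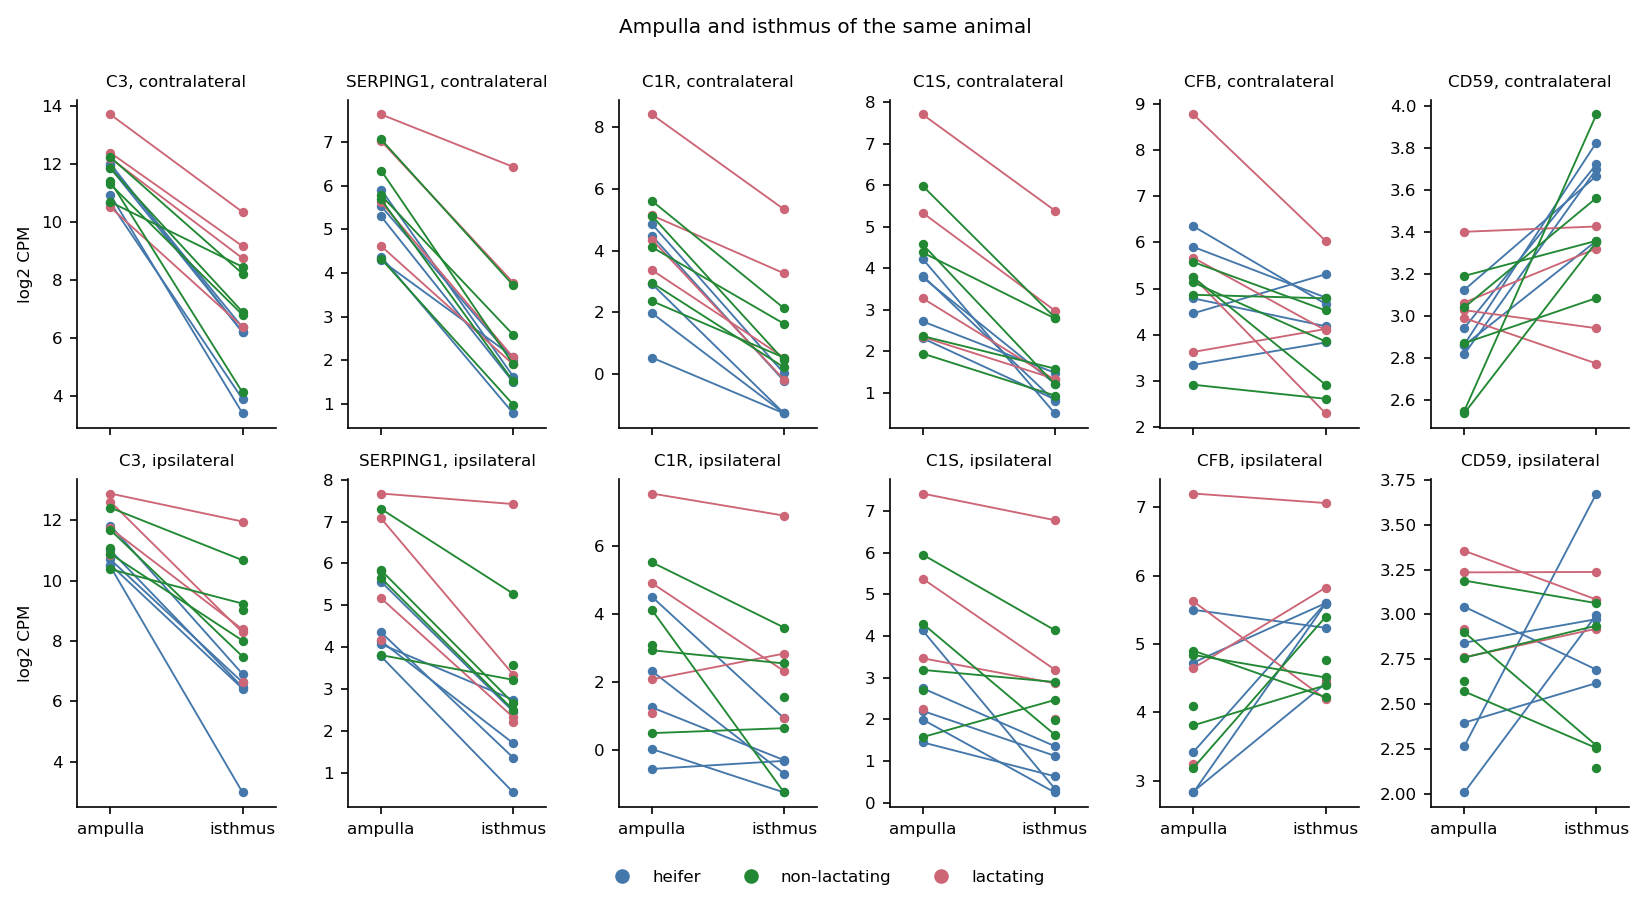
Ampulla and isthmus of the same animal for C3, SERPING1, C1R, C1S, CFB and CD59. The vertical axis is log2 CPM, the upper row is the contralateral and the lower row the ipsilateral oviduct, each line joins 1 animal and its colour gives the metabolic group, and points without a line are the 2 misnumbered libraries and their isthmus partners. Every contralateral line falls for C3, SERPING1, C1R and C1S, whereas 12 of 14 rise for CD59.

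Markers of other cell types also differed between the regions. The summed endothelial markers (4 genes, of which 3 could be tested) were 69.2 to 357 CPM in the 28 ampulla libraries and 5.96 to 98.2 CPM in the 28 isthmus libraries, and the ciliated markers were lower in the isthmus for 8 of 8 genes on both sides. Fibroblast markers (7 genes) were 31.1 to 200 CPM in the ampulla and 88.3 to 618 CPM in the isthmus, and smooth muscle markers 7.33 to 30.0 and 10.3 to 93.8 CPM. Macrophage markers overlapped, with medians of 21.1 and 17.1 CPM and no gene called on either side, as did lymphocyte markers at 20.6 and 20.8 CPM. Of 28 interferon-stimulated genes, 9 were called lower and 1 higher in the ipsilateral isthmus, and 15 lower and 1 higher in the contralateral isthmus. The part of these cells and genes in the regional differences was not tested.

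Other complement genes were called in both directions, at shares near those of all genes. Of 41 further listed genes 32 were in the table, and of the 16 that could be tested ipsilaterally 4 were called higher and 5 lower in the isthmus (9 genes, 56.2%, beside 51.3% of all genes). Contralaterally 21 could be tested, with 3 called higher and 4 lower (7 genes, 33.3%, beside 44.6%). In a fit added after seeing the data, without the 4 doubted libraries, 7 of the 9 ipsilateral calls held. MASP1, a protease of the lectin pathway, was lower in the isthmus, with log2 fold changes of -2.31 ipsilaterally and -2.63 contralaterally (adjusted p = 2.3e-07 and 2.1e-09). COLEC11, a collectin that recognises sugars for that pathway, had log2 fold changes of -1.51 and -2.12 in the same order (adjusted p = 0.000274 and 5.5e-05). It had more than 3 counts in 9 of 14 ipsilateral and 8 of 14 contralateral isthmus libraries, so its level there was near the floor.

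C4A, which encodes the other thioester component of the classical pathway and whose near-identical copies can share reads, was also lower in the isthmus (log2 fold changes -0.90 ipsilaterally and -1.76 contralaterally, adjusted p = 0.0456 and 3.3e-05). CLU, which encodes clusterin, a fluid-phase inhibitor of the terminal complex, was higher there. Its means were 5685 ± 1169 CPM in the ipsilateral isthmus and 2947 ± 540 CPM in the ampulla (SD, n = 14 each), with a log2 fold change of 0.92 (SE 0.099, adjusted p = 6.3e-09), and 5278 ± 1116 and 3252 ± 896 CPM contralaterally (0.69, SE 0.13, adjusted p = 8.0e-05).

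The other calls given here were on 1 side. Ipsilaterally C7, a part of the terminal complex, was higher in the isthmus (log2 fold change 0.97, adjusted p = 0.00286), as were SUSD4, a membrane regulator (0.77, adjusted p = 0.0351), and C1QBP, a binding protein for C1q (0.31, adjusted p = 0.0147). CFP, which encodes properdin, the stabiliser of the alternative convertase, was lower (-0.50, adjusted p = 0.0398). The calls of SUSD4 and CFP were lost without the 4 doubted libraries (adjusted p = 0.0762 and 0.125). Contralaterally C8B, another part of the terminal complex, and CSMD1, a membrane regulator, were higher (1.26, adjusted p = 0.0152, and 2.12, adjusted p = 0.000573). In the contralateral ampulla C8B had more than 3 counts in 7 of 14 libraries and CSMD1 in 6 of 14, so both were near the floor there.

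The sides were compared next, where the side of the CL is also the side that ovulated. The paper states that its design cannot separate effects of the unfertilized oocyte and cumulus cells. It holds a detectable effect of a single oocyte to be unlikely. The main fits had metabolic group as a covariate and did not pair the oviducts of an animal. In the isthmus, over the 3 metabolic groups, 2 of the 9 genes were called among 29.3% of the 14506 genes tested. CFB was higher ipsilaterally (1 gene, with 16.1% of all genes called higher) and CD59 was lower (1 gene, with 13.2% called lower). The median log2 difference of the 9 genes was 0.80, beside -0.0047 over all genes tested.

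CFB ran from 17.9 to 133 CPM in the ipsilateral isthmus (median 32.0) and from 4.49 to 65.1 CPM in the contralateral isthmus (median 17.4). Means were 40.0 ± 29.9 and 21.7 ± 15.7 CPM (SD, n = 14 each), with a log2 fold change of 0.84 (SE 0.31, adjusted p = 0.0424). The ipsilateral isthmus was the higher in 13 of 14 animals, and 7.86% of all genes were higher ipsilaterally in at least that many. The exception was non-lactating cow C, with 26.7 CPM ipsilaterally and 27.2 CPM contralaterally. The call was lost in 9 of 14 fits that left out 1 animal (adjusted p up to 0.0822) and with all 56 libraries in 1 fit (adjusted p = 0.157), and with animal as a block it held (0.90, SE 0.14, adjusted p = 6.8e-05).

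CD59 ran from 4.00 to 12.4 CPM in the ipsilateral isthmus (median 7.34) and from 6.42 to 15.2 CPM in the contralateral isthmus (median 10.1). Means were 7.10 ± 2.18 and 10.7 ± 2.49 CPM, and the log2 fold change was -0.59 (SE 0.15, adjusted p = 0.00327). The contralateral isthmus was the higher in 11 of 14 animals, and 18.7% of all genes were lower ipsilaterally in at least that many. The exceptions were heifer E and lactating cows B and C.

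With animal as a block, 6 of the 9 genes were called in the isthmus, among 31.3% of all genes. Besides CFB and CD59 these were C3 (log2 fold change 0.92, SE 0.34, adjusted p = 0.0454), C1R (1.04, SE 0.34, adjusted p = 0.0247), C1S (0.70, SE 0.19, adjusted p = 0.00714) and SERPING1 (0.73, SE 0.22, adjusted p = 0.0174), all higher ipsilaterally. Without the block their adjusted p were 0.0900, 0.174, 0.263 and 0.219. The ipsilateral isthmus was the higher in 11 of 14 animals for C3 and for SERPING1, in 10 for C1R and for C2, and in 9 for C1S. The wider complement list was fitted without the block only. There 2 of its 17 genes tested were called, among 29.3% of all genes. Both were lower ipsilaterally: CFP (-0.72, adjusted p = 0.0145) and CSMD1 (-0.98, adjusted p = 0.0379).

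Markers of other cells also differed between the 2 sides of the isthmus. Summed fibroblast markers had a median of 160 CPM ipsilaterally and 246 CPM contralaterally, with 1 of 6 genes tested (FBLN1) called lower ipsilaterally. Endothelial markers had medians of 18.3 and 33.5 CPM, with 1 of 3 (KDR) called lower. Ciliated markers were at 3419 and 3983 CPM with 2 of 8 called lower, and epithelial markers at 1484 and 1274 CPM with 3 of 5 called higher. The part of these cells in the isthmus values of CFB, CD59 and the other members was not tested.

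**Figure D3:**
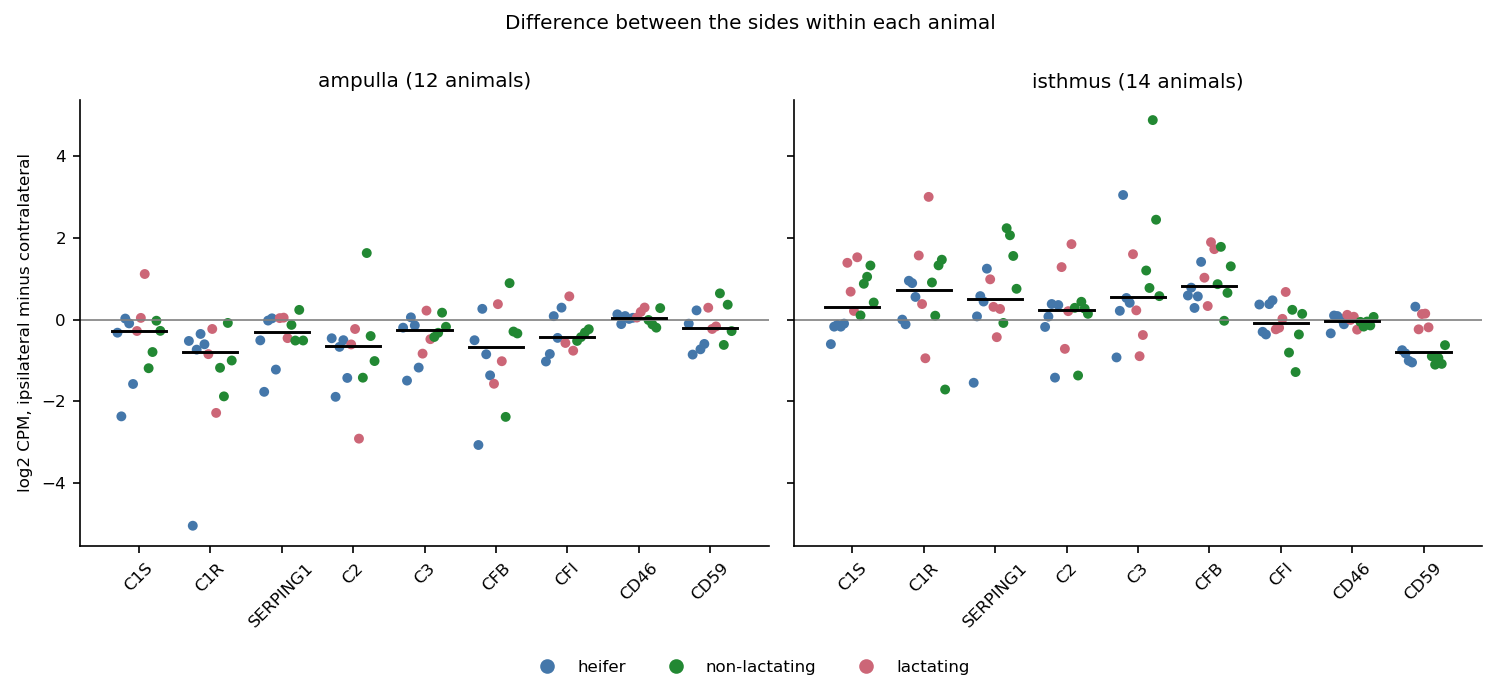
Difference between the oviducts of the same animal. Each point is 1 animal coloured by metabolic group, the vertical axis is ipsilateral minus contralateral log2 CPM, bars mark medians, and the panels show the ampulla (12 animals) and the isthmus (14 animals). C1R lies below 0 in all 12 ampullae, CFB lies above 0 in 13 of 14 isthmuses, and CD59 lies below 0 in 11 of 14 isthmuses.

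In the ampulla none of the 9 genes was called between the sides, among 5.41% of the 14553 genes tested, and CFB was the only one with an unadjusted p under 0.05 in edgeR, as 1 gene was in DESeq2, which called none. C1R ran from 0.257 to 188 CPM ipsilaterally and from 1.04 to 338 CPM contralaterally (medians 5.90 and 18.5). It was lower in the ipsilateral ampulla of 12 of 12 animals, as 0.680% of all genes were, while its log2 fold change was -0.80 (SE 0.62, adjusted p = 0.517). It was lower in 10 of 10 animals without the 4 doubted libraries, with a log2 fold change of -0.40 (adjusted p = 0.806), and no member was called (CFB -0.76, adjusted p = 0.430). The difference within an animal ran from -5.05 to -0.081 on the log2 scale, with the largest in heifer B, whose ipsilateral ampulla library was one of the 4 doubted.

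With animal as a block, C1R was called in the ampulla (-1.05, SE 0.24, adjusted p = 0.0111), as was CFB (-0.79, SE 0.24, adjusted p = 0.0494), among 6.53% of all genes. Without the 4 doubted libraries the blocked fit called C1R (-0.78, SE 0.17, adjusted p = 0.0201), C2 (-0.95, SE 0.22, adjusted p = 0.0283) and CFB (-0.78, SE 0.21, adjusted p = 0.04997), among 2.53% of all genes. C2 was lower ipsilaterally in 11 of 12 animals and CFB in 9 of 12, and without the 4 in 10 of 10 and 8 of 10. Lymphocyte and macrophage markers, 5 genes each, had negative fitted differences for all 10 and no call. Their part in the values of C1R, C2 and CFB was not tested.

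The side effect on CFB differed between the regions. The product of side and region was 1.81 for CFB (SE 0.57, adjusted p = 0.0432), which was 1 of the 9 genes called, among 6.66% of the 15189 genes tested and 4.54% called above 0. For the other 8 the adjusted p was 0.101 for C3 (1.72, SE 0.65), 0.191 for CD59 (-0.44, SE 0.20), 0.226 for C1R (1.99, SE 0.98) and higher for the rest. Without the 4 doubted libraries the CFB term was 1.56 (SE 0.59, adjusted p = 0.122), and it was lost in 11 of 16 fits that left out 1 animal or 1 misnumbered library. With the block 4 genes were called, C1R, C1S, CFB and SERPING1, among 8.03% of all genes. With the block and without the 4 doubted libraries it was C1R (1.81, SE 0.48, adjusted p = 0.0205) and CFB (1.47, SE 0.38, adjusted p = 0.0176), among 5.50% of all genes.

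Within single metabolic groups no complement member was called between the sides by the main edgeR fits. Calls by other fits are given with the values or under how the results depend on the processing. In the ampulla the shares of all genes called were 0% in heifers, 0.0947% in non-lactating cows and 0% in lactating cows, and 9.2%, 11.1% and 4.26% had an unadjusted p under 0.05. No member had one in edgeR, while 1 had in DESeq2, in non-lactating cows. In the isthmus the shares were 10% in heifers, 5.11% in non-lactating cows and 0.187% in lactating cows, and 2, 3 and 0 members had an unadjusted p under 0.05, as had 27.2%, 21.5% and 12.2% of all genes. C1R, C1S and C2 were too low to be tested in the heifer isthmus.

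CD59 came closest to the threshold. In non-lactating cows A to E its ipsilateral isthmus was at 7.94, 4.35, 4.00, 4.40 and 7.24 CPM and its contralateral isthmus at 15.2, 9.84, 8.07, 9.80 and 11.4 CPM. The 2 sets did not overlap, as was true of 6.75% of all genes tested, and the log2 fold change was -0.98 (SE 0.27, adjusted p = 0.0522). DESeq2 called it (adjusted p = 0.0170), as did the fit with animal as a block (adjusted p = 0.0199). In heifers A to E it was at 7.44, 7.57, 6.04, 5.72 and 12.4 CPM ipsilaterally and 12.8, 13.8, 12.6, 12.3 and 9.84 CPM contralaterally, so 4 of 5 heifers were lower ipsilaterally (log2 fold change -0.66, SE 0.23, adjusted p = 0.0806).

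In lactating cows A to D CD59 was at 8.06, 8.03, 7.15 and 9.01 CPM ipsilaterally and at 9.58, 7.27, 6.42 and 10.3 CPM contralaterally, with 2 cows lower and 2 higher (log2 fold change -0.06, SE 0.23, adjusted p = 0.962). The test of a difference in the side effect between the 3 groups gave CD59 an unadjusted p of 0.0394 and an adjusted p of 0.99994, and called 0% of all genes in the isthmus, as in the ampulla.

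With animal as a block, members were also called in the isthmus of single groups. CFB was called in heifers (log2 fold change 0.72, adjusted p = 0.0160, among 13.3% of all genes) and in lactating cows (1.21, adjusted p = 0.0330, among 2.30%). SERPING1 was called with CD59 in non-lactating cows (1.32, adjusted p = 0.0419, among 7.03%). Of the wider list CFP was called in the heifer isthmus (-1.32, adjusted p = 0.0266). C5AR2, a receptor for C5a, was called without the block in the non-lactating isthmus, among 5.11% of all genes. It was at 37.0 ± 10.7 CPM ipsilaterally and 12.8 ± 6.87 CPM contralaterally (log2 fold change 1.58, SE 0.41, adjusted p = 0.0458).

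The metabolic groups were compared in each of the 4 tissues. None of the 9 genes was called in any of the 12 comparisons by the main edgeR fits, which left some untested as too low. C1R and C2 were not tested in the ipsilateral isthmus when either group of cows was set against heifers. In the contralateral isthmus C1R and C1S were not tested for lactating cows against heifers. Nor were C1R, C1S and C2 for non-lactating cows against heifers there. These called 0% of all genes in 11 comparisons. They called 0.00730% in the ipsilateral isthmus when non-lactating cows were set against heifers. Between 1 and 6 members a comparison had an unadjusted p under 0.05, beside 3.57 to 11.8% of all genes. DESeq2 called members in 3 of the comparisons, all of them of cows with heifers in the isthmus. In the ipsilateral isthmus edgeR called C3 in lactating cows against heifers with all 56 libraries in 1 fit. Without a filter it called C3 in non-lactating cows against heifers there.

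For C3 the ipsilateral isthmus stood apart between non-lactating cows and heifers. It was at 258, 604, 519, 1639 and 179 CPM in non-lactating cows A to E and at 7.44, 85.2, 87.7, 119 and 98.5 CPM in heifers A to E. The groups did not overlap, as was true of 2.24% of all genes tested. Means were 640 ± 586 and 79.6 ± 42.5 CPM (SD, n = 5 each), and the log2 fold change was 3.02 (SE 0.66, adjusted p = 0.134).

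C1S in the same tissue was at 7.04, 5.11, 3.56, 17.2 and 2.68 CPM in non-lactating cows A to E and at 0.770, 1.14, 2.15, 0.847 and 1.77 CPM in heifers A to E, again without overlap. Its log2 fold change was 2.40 (SE 0.53, adjusted p = 0.136). SERPING1 was at 5.23, 8.90, 11.6, 38.3 and 5.90 CPM and at 1.03, 2.84, 2.15, 5.08 and 6.28 CPM, with overlap through heifer E (log2 fold change 2.01, SE 0.59, adjusted p = 0.212). These 3 genes were the ones DESeq2 called (adjusted p = 0.00930 for C3, 0.00343 for C1S and 0.0268 for SERPING1), among 1.74% of the genes it tested. The paper, which also used DESeq2 on these libraries, had reported the same 3 genes as higher in non-lactating cows than in heifers there. The call is therefore not independent of that report. CFI and CFB had negative differences (-0.64, adjusted p = 0.266, and -0.62, adjusted p = 0.354), and C1R and C2 were too low to be tested there. Summed epithelial markers were at 1536 to 1865 CPM in the heifers and 1354 to 1473 CPM in the non-lactating cows, secretory markers at 594 to 18171 and 15238 to 23287 CPM, and ciliated markers at 2386 to 3465 and 3039 to 3821 CPM. Macrophage markers were at 10.3 to 19.7 and 10.8 to 19.0 CPM. The part of these cells in the differences was not tested.

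Lactating cows against heifers gave wider spreads. In the ipsilateral isthmus C3 was at 3988, 98.3, 311 and 333 CPM in lactating cows A to D, beside the heifer values above, and the ranges overlapped (log2 fold change 3.94, SE 1.01, adjusted p = 0.279). C1S was at 110, 3.59, 8.74 and 6.88 CPM and did not overlap with heifers, as 3.48% of all genes did not (log2 fold change 4.59, SE 1.01, adjusted p = 0.251). DESeq2 called C3 (adjusted p = 0.0351), among 1.08% of the genes it tested, and gave C1S and SERPING1 no p. In the contralateral isthmus C3 was at 1311, 83.9, 579 and 433 CPM in lactating cows A to D and at 14.5, 73.3, 10.2, 82.4 and 73.9 CPM in heifers A to E, without overlap, as for 3.26% of all genes (log2 fold change 3.58, SE 0.76, adjusted p = 0.372). There DESeq2 called C3 (adjusted p = 0.0191) and C1S (adjusted p = 0.0357), among 0.531% of the genes it tested. C1S was too low there for the main edgeR fit, with 3 to 11 counts in each heifer library.

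In the ampulla the cow and heifer values of C3 overlapped on both sides. Means in the ipsilateral ampulla were 2053 ± 921 CPM in heifers (n = 5), 2835 ± 1643 CPM in non-lactating cows (n = 5) and 4790 ± 2633 CPM in lactating cows (n = 4). The test of whether the region effect differed between groups ipsilaterally gave C3 an unadjusted p of 0.0267 and an adjusted p of 1, with 0% of all genes called. The difference between cows and heifers was therefore not shown to be particular to the isthmus.

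One animal stood apart within the lactating group. In lactating cow A the levels of C3, C1S, C1R, C2, CFB, CFI and SERPING1 were the highest of all libraries of that tissue in 4 of 4 tissues. Its C3 was at 1311 to 13538 CPM, beside 83.9 to 6310 CPM in the other 12 lactating libraries, and its C1R at 39.9 to 338 CPM beside 0.470 to 34.9 CPM. Its CFB was at 65.1 to 437 CPM beside 4.49 to 56.2 CPM, and C1R, CFB, C1S and CFI did not overlap with the other lactating libraries. For CD46 that cow was the highest in no tissue and for CD59 in 1.

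Macrophage markers in the libraries of lactating cow A summed to 53.9 to 146 CPM, above the 8.99 to 40.0 CPM of the other 52 libraries. Lymphocyte markers summed to 96.6 to 150 CPM, above 5.40 to 66.3 CPM. Interferon-stimulated genes, at 1323 to 2325 CPM, lay within the 548 to 4796 CPM of the others, and so did fibroblast, endothelial, epithelial, secretory, ciliated and smooth muscle markers. The part of these cells in the complement values of that cow was not tested.

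Lactating and non-lactating cows, which differ in milking and not in parity, gave differences that moved when lactating cow A was left out. In the ipsilateral isthmus the log2 difference of C1R, lactating minus non-lactating, was 2.98 with all libraries and 0.037 without that cow. For C1S it was 2.19 and -0.15, for SERPING1 1.78 and -1.17, and for C3 0.92 and -1.36. In the ampulla C1R had 2.16 and -0.048 contralaterally and 1.85 and -0.37 ipsilaterally, and CFB 2.12 and 0.11 contralaterally. None of these differences was called with or without lactating cow A (adjusted p of 0.749 or more).

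**Figure D4:**
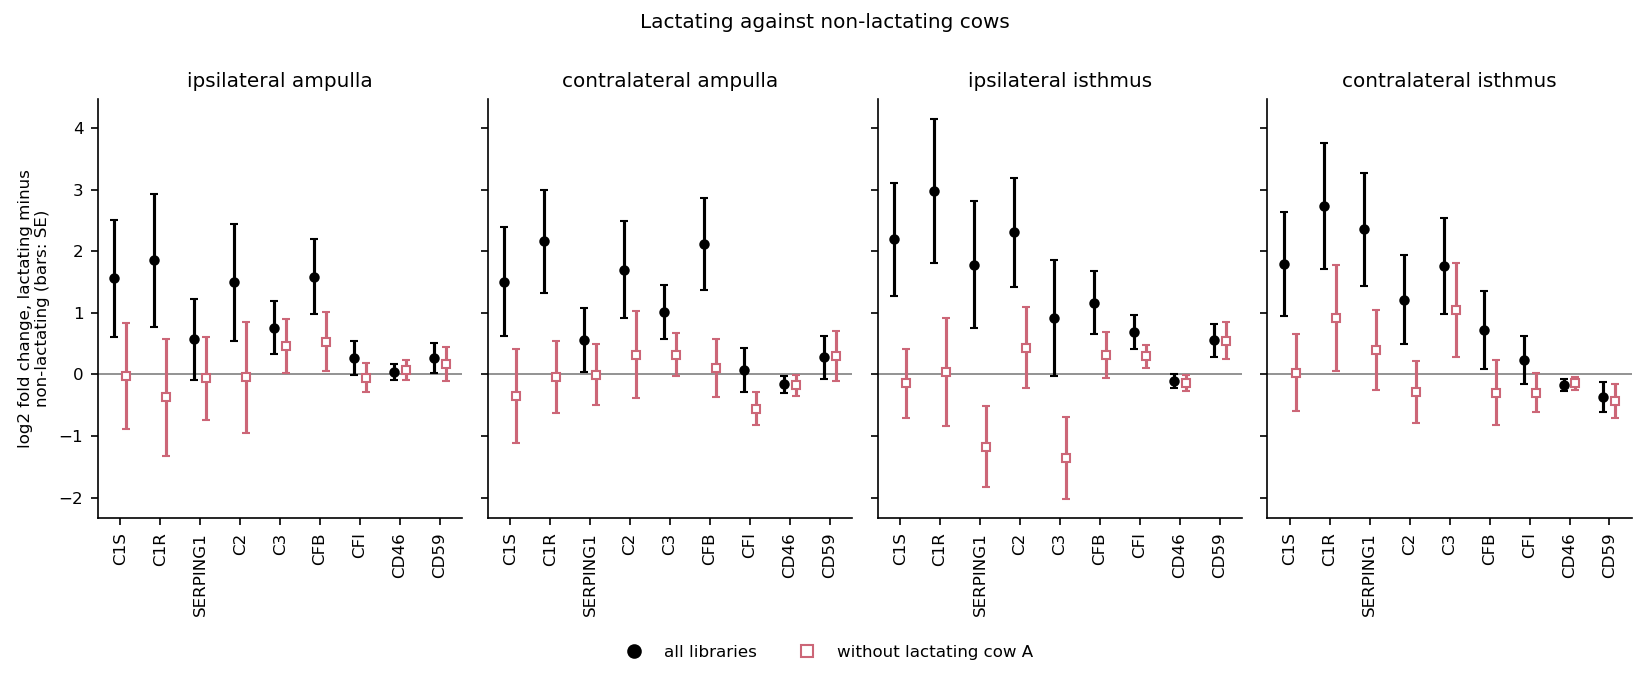
Lactating minus non-lactating cows with all libraries and without lactating cow A. Each point is the log2 fold change of 1 gene in 1 tissue (filled circles with all libraries, open squares without that cow), error bars are standard errors, and the panels are the 4 tissues. The values of C1R, C1S, C2 and SERPING1 move towards or past 0 once lactating cow A is left out, while CD46 and CD59 stay near where they were.

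Lactating cows against heifers were also fitted without lactating cow A. The log2 difference of C3 in the ipsilateral isthmus was then 1.66 and that of C1S 2.25, and in the contralateral isthmus that of C3 was 2.86. That of SERPING1 went from 3.79 to 0.83 in the ipsilateral and from 3.29 to 1.31 in the contralateral isthmus, that of C2 from 1.72 to 0.23 in the contralateral isthmus and that of C1R from 3.22 to 0.97 in the ipsilateral ampulla. CFB turned negative in 3 tissues, from 0.54 to -0.32 in the ipsilateral isthmus, from 0.076 to -0.95 in the contralateral isthmus and from 1.77 to -0.24 in the contralateral ampulla. None of these was called with or without that cow.

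The order of the 12 condition means followed the region for some genes and not for others. For C3 every ampulla mean lay above every isthmus mean. For C1S, C1R and C2 the ipsilateral isthmus of lactating cows, lactating cow A included, ranked 3 and lay above each ampulla mean of the other groups. CFB and CD46 mixed the regions. The highest mean of C3, C1S, C1R, C2, CFB and SERPING1 was in the contralateral ampulla of lactating cows, which for C3 was 6296 ± 5127 CPM (n = 4). That mean includes lactating cow A. Without it, an alternative chosen after seeing the data, the mean there was 3882 CPM for C3, 21.7 for C1R, 18.0 for C1S, 13.3 for C2, 33.2 for CFB and 67.6 for SERPING1 (n = 3). C3 and C2 were then still highest there, while the highest means of C1R, C1S and SERPING1 were in the contralateral ampulla of non-lactating cows (22.4, 23.0 and 67.9 CPM) and that of CFB in the ipsilateral isthmus of heifers (40.4 CPM). With all libraries the lowest mean of C3 was 50.9 ± 35.4 CPM in the contralateral isthmus of heifers (n = 5). CD59 was highest in the contralateral isthmus of heifers, at 12.3 ± 1.46 CPM, and lowest in their ipsilateral ampulla, at 5.48 ± 1.75 CPM. CFI had means from 41.6 to 83.6 CPM and CD46 from 542.5 to 650 CPM. All 11 steps between neighbouring means were smaller than the larger of the 2 SDs for each of the 9 genes. The 12 conditions held 80.9% of the variance of log2 CPM for C3, 66.9% for SERPING1 and 59.8% for CD59, and 24.2% for CFI, the least of the 9. A split into 12 groups holds part of the variance by chance, and that part was not taken off these shares.

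The genes of the C1 complex and its inhibitor varied together over the 56 libraries, which share animals, so the correlations are descriptions. C1S and C1R had a Pearson r of 0.93 over all libraries and 0.89 after the condition means were taken off. Among 12786 genes the 3 most like C1S were C1R, SERPING1 (0.88) and CXCL10, an interferon-induced chemokine (0.88). The 3 most like C1R were C1S, C2 (0.89) and SERPING1 (0.89), and those most like C2 were C1R, CD74, the invariant chain of MHC class II (0.88), and C1S (0.86). SERPING1 was most like C3 (0.91), C1R (0.89) and GABRP, a GABA receptor subunit (0.88).

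C3 was most like PTGDS, a prostaglandin D synthase, PALMD and GAS7 (0.92 each). CFB was most like VCAM1, a leukocyte adhesion molecule (0.68), C1QB, a chain of C1q (0.68), and C2 (0.67), and CFI like CHRDL1 (0.63), SCIN (0.62) and GIMAP8 (0.62). CD59 was most like TACR1, the substance P receptor (0.69), PIK3IP1 (0.64) and ANXA3 (0.61). CD46 had the weakest likeness, to SYT4 (0.58), TRAPPC10 (0.52) and HLCS (0.50). After the condition means were taken off, C3 was most like NTRK2 (0.80), SERPING1 (0.76) and ACSM1 (0.74). SERPING1 was then most like CD74 (0.90). All 3 genes most like CFI and like CD59 also changed, while those of CFB stayed the same. The libraries of lactating cow A are in all of these correlations.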

How the data were processed

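Per the study's methods, the authors made stranded libraries from total RNA (NuGEN Encore), aligned reads with TopHat2 2.0.13 to Btau_4.6.1 and counted them per gene with HTSeq 0.6.1 by strand. The deposited table holds raw counts. Its 56 columns name a condition and an animal number. Rows that name no gene took the rest of the alignments and were left out. In the main fits each comparison was fitted to its own libraries with edgeR 4.0.16. They used the quasi-likelihood test, TMM and genes kept by filterByExpr at a minimum count of 10. Metabolic group was a covariate where groups were pooled. Genes with a Benjamini-Hochberg adjusted p under 0.05 over all genes tested were called. DESeq2 1.42.0, other scaling, no filter, 1 fit of all 56 libraries, an animal block and left-out animals were alternatives, and the script was tested on simulated data. Same-numbered libraries were taken to come from the same animal, with the numbers taken from column names. Of the 4 doubted libraries described above, only the misnumbered ones were left out of the main counts by animal. The rest were paired by their numbers. The animal block followed the numbers for all 4, except in fits made without them. The deviations of pairs with the same group and number correlated at a median r of 0.34 over 26 pairs (-0.043 to 0.66, 20 over 0.1). The members, gene lists and tests were chosen with earlier results of these data known. Named genes are all members, every gene of the wider complement list called in any comparison, and the 3 genes most like each member. One item of the wider list is counted there but not reported here. Within a group the samples are separate animals.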

Additional observations from a re-analysis of the deposited data

Results flagged for a closer look

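In 5 of 108 groups of libraries checked, 1 library stood far from the others of its group, where chance alone gives about 1 in 20 groups (5.4 here). C3 in the ipsilateral isthmus of heifer A was 7.44 CPM, beside 85.2 to 119 CPM in the other heifers. C2 in the contralateral isthmus of lactating cow A was 19.2 CPM, beside 1.88 to 2.70 CPM. CFB in the contralateral ampulla of non-lactating cow B was 7.13 CPM, beside 28.7 to 47.2 CPM. CFI in the ipsilateral ampulla of heifer A was 11.9 CPM, beside 41.6 to 63.5 CPM, and in the ipsilateral isthmus of heifer E 130.1 CPM, beside 63.1 to 76.5 CPM.

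The difference between the oviducts differed by region for CFB, with a side by region term of 1.81 on the log2 scale (edgeR, adjusted p = 0.0432). For C1S in the isthmus, every heifer was lower ipsilaterally (median log2 difference -0.17) and every lactating and non-lactating cow higher (medians 1.04 and 0.88). The heifer values rest on 3 to 11 counts a library, too low to be tested in that group. The test of that difference between groups gave an unadjusted p of 0.53 and an adjusted p of 0.99994. In non-lactating cows C1S was lower ipsilaterally in each ampulla compared (median -0.53) and higher in each isthmus (median 0.88), a difference that was not tested within that group.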

How the results depend on the processing

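With animal as a replicate block the number of members called between the sides was 6 in the isthmus and 2 in the ampulla over all groups, 4 for the side by region term, and in the isthmus of single groups 1 in heifers, 2 in non-lactating cows and 1 in lactating cows. The block together with leaving out the 4 doubted ipsilateral ampulla libraries, an alternative added once the data had been seen, gave 3 over all groups in the ampulla, 1 (C1R) in the lactating ampulla and 2 for the side by region term, which called 0 members without those 4 libraries and no block. The block changed no other count by over 1.5 times. No paired analysis was possible for the metabolic groups because they are different animals. DESeq2 called 3 members for non-lactating cows against heifers in the ipsilateral isthmus, 1 for lactating cows against heifers there and 2 contralaterally, and 1 (CD59) between the sides of the non-lactating isthmus. With all 56 libraries in 1 fit the counts were 1 between the sides of the isthmus over all groups, where CFB was lost (adjusted p = 0.157), 1 in the non-lactating isthmus, 1 for lactating cows against heifers in the ipsilateral isthmus and 0 for the side by region term. Without a filter 1 member (C3) was called for non-lactating cows against heifers in the ipsilateral isthmus.

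Leaving out 1 animal at a time gave 1 to 2 members called between the sides of the isthmus over all groups, 2 to 6 between the regions ipsilaterally, 0 to 1 for the side by region term and 0 to 1 in the heifer isthmus, where CD59 was called without heifer E (adjusted p = 0.0482). Lactating minus non-lactating, the difference of C1S in the ipsilateral isthmus ran from -0.15 to 2.82 and that of C1R in the contralateral ampulla from -0.048 to 2.66, both lowest and turned in direction without lactating cow A. The causes of these changes were not tested. The contralateral calls between regions held under every alternative and every animal left out. C1R had no count in 5 isthmus libraries, in which levels under 0.651 to 1.04 CPM could not be told from none.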
